A study of Mus musculus with 8 samples.

Results

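The Bcl2 family genes Bcl2, Bcl2l1, Mcl1, Bax, Bak1, Bcl2l11, Bid, Bbc3 and Pmaip1 were described in Foxp3-expressing regulatory T cells (Treg cells) of mouse thymus and spleen. These 9 genes were taken by name, and for each the probe set with exactly 1 gene symbol and the highest mean over all 8 arrays was used. This gave values for 8 of the 9 genes, among 22180 genes in all. Bax, which encodes the pore-forming partner of BAK, had no probe set with a single symbol in the annotation used and was not analysed here.

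Family members decide whether the outer mitochondrial membrane stays intact. Prosurvival proteins (BCL2, BCL-xL, MCL1) hold the effectors BAX and BAK in check, and BH3-only proteins (BIM, BID, PUMA, NOXA) raise cell death by binding prosurvival proteins or by activating the effectors directly. Developing and peripheral T cells are known to depend on this balance, since BIM takes part in the deletion of self-reactive thymocytes and MCL1 is needed for the survival of Treg cells.

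RNA came from C57Bl/6J mice in which green fluorescent protein (GFP) was expressed from the Foxp3 locus, in every group, and cells were sorted as CD4+CD25+GFP+. Thymus and spleen of HET and of KO mice gave 4 groups of 2 arrays, where HET mice had 1 deleted copy of the miR-181a/b-1 microRNA cluster and served as controls, and KO mice had no intact copy. The labels gave no treatment and no age, and each array held a pool of mice: HET1 pooled 3 females with 1 male, HET2 pooled 4 females with 1 male, and KO1 and KO2 each pooled 2 females with 1 male. The legend in the study gives other pool sizes, and those of the labels were used here. Thymus and spleen arrays with the same genotype and number shared a pool. The deletion was present in all cells of the mice, and no wild-type group was measured.

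miR-181a and miR-181b, the microRNAs made from the deleted cluster, are shown because their deletion defines the KO label, and Bcl2 has been described as a target of miR-181a. Their mature sequences (RefSeq, GRCm38.p6) lay on chromosome 1, at chr1:137966468-137966490 and chr1:137966650-137966673, both on the plus strand. Capitals mark the seed (bases 2 to 8), which was identical in both.
mmu-miR-181a-5p: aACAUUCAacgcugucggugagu
mmu-miR-181b-5p: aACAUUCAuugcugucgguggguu
The same mature sequences were also encoded by the cluster of Mir181a-2 and Mir181b-2 on chromosome 2 (chr2:38852741-38852763 and chr2:38853845-38853868), which the deletion left in place.

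Levels are log2 intensities, in which a step of 1 is a doubling, and the 95th percentile of 1105 olfactory receptor genes, 4.63, served as the upper edge of background. Correlations between arrays ranged from 0.978 to 0.990. Probe sets of the deleted precursors gave no readout of the deletion, since Mir181a-1 (1.81 to 2.57) and Mir181b-1 (2.26 to 3.44) lay under background on all 8 arrays, HET included. The sorted cells matched their label, with Foxp3 at 10.79 to 11.24, Il2ra (CD25) at 10.99 to 11.20 and Cd4 at 10.63 to 11.40. Xist, the RNA of the inactive X chromosome, was at 3.58 to 4.40 on the HET arrays and at 8.80 to 9.40 on the KO arrays, although the labels list females in every pool. The Y-linked Eif2s3y was measured on all arrays (7.43 to 8.07 in HET and 7.07 to 7.78 in KO). The sex makeup of the RNA and the genotype therefore cannot be told apart in any comparison of KO with HET cells.

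All 8 genes were above background on every array, the lowest single value being 5.12 for Bbc3. Between genotypes 0 of the 8 genes passed the threshold in either organ, beside 0.00451% of all genes in each. Between organs, averaged over genotypes, 2 of the 8 passed, beside 5.43% of all genes: Bcl2l1 was 1.34-fold higher in thymic Treg cells and Bcl2l11 was 1.43-fold lower. Within either genotype alone 0 of the 8 passed, and each of both calls was lost in 6 of 8 fits with 1 array left out. For all 8 genes and in each contrast the 95% confidence interval (CI) excluded a 2-fold difference.

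**Figure D1:**
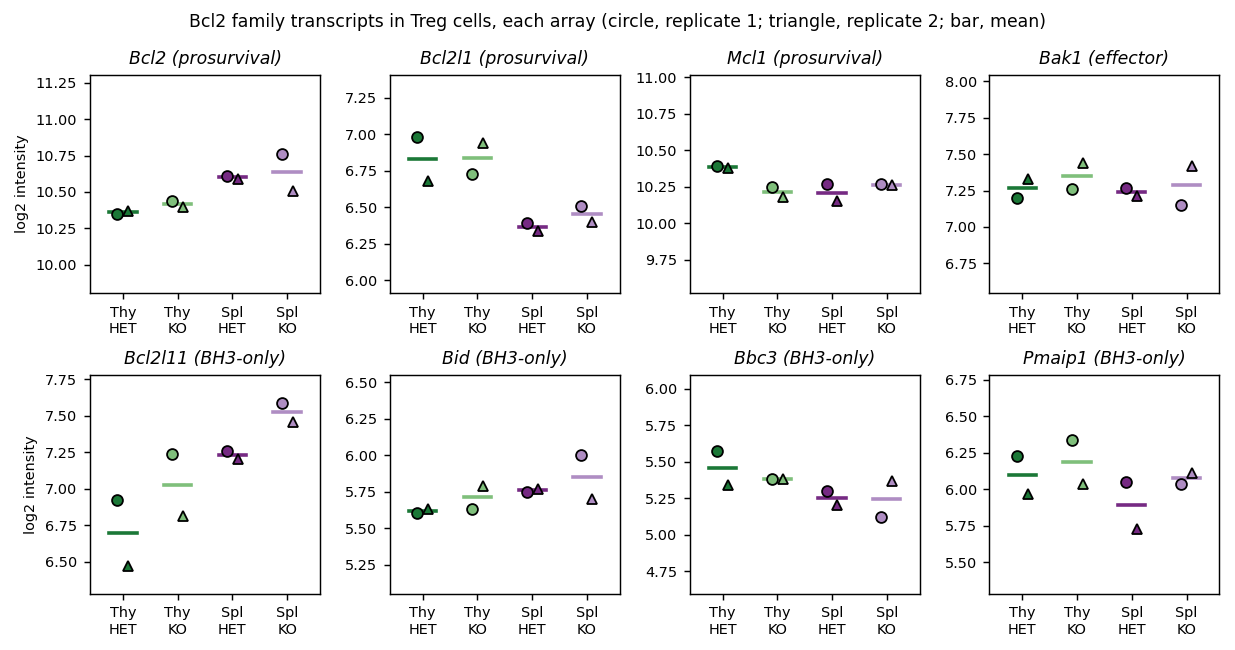
Log2 intensity (vertical axis, spanning 1.5 units in each panel) of 8 Bcl2 family genes in thymic (Thy) and splenic (Spl) Treg cells of HET and KO mice. Circles are replicate 1, triangles replicate 2 and bars the mean of 2 arrays; Bcl2l1 lies higher on all thymus arrays than on any spleen array and Bcl2 lower.

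Bcl2, the founding prosurvival member, was at 10.35 and 10.37 in thymus HET, at 10.44 and 10.40 in thymus KO, at 10.61 and 10.59 in spleen HET, and at 10.76 and 10.51 in spleen KO. All 4 thymus arrays lay below all 4 spleen arrays, and the genotypes overlapped in spleen but not in thymus. KO and HET cells differed by 0.03 in spleen (CI -0.25 to 0.31; adjusted p = 1) and by 0.06 in thymus (CI -0.22 to 0.34; adjusted p = 0.992). A second Bcl2 probe set with a lower signal had values of 4.94 to 5.34 over the 8 arrays. On it the organs overlapped, as did the genotypes in each organ. Averaging both probe sets turned the KO difference in spleen to -0.05 and moved that in thymus to 0.01.

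Bcl2l1 encodes BCL-xL, a prosurvival protein that is induced by activation and cytokine signals in lymphocytes. It was at 6.98 and 6.68 in thymus HET, at 6.73 and 6.94 in thymus KO, at 6.39 and 6.34 in spleen HET, and at 6.51 and 6.40 in spleen KO. Every thymus array lay above every spleen array, and the 2 KO arrays of the spleen lay above the 2 HET arrays by a small margin. The genotype difference was 0.09 in spleen (CI -0.22 to 0.40) and 0.01 in thymus (CI -0.30 to 0.32).

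Mcl1, whose protein is short-lived and binds NOXA and BIM, was at 10.39 and 10.38 in thymus HET, at 10.25 and 10.18 in thymus KO, at 10.27 and 10.15 in spleen HET, and at 10.27 and 10.26 in spleen KO. The thymus HET arrays were the highest, above both thymus KO arrays, and the spleen groups overlapped. The genotype difference was -0.17 in thymus (CI -0.43 to 0.09; adjusted p = 0.969) and 0.05 in spleen (CI -0.22 to 0.31; adjusted p = 1). A second Mcl1 probe set with a lower signal was at 7.16 and 7.21 in thymus HET and at 7.19 and 7.51 in thymus KO, so it overlapped there, and averaging both probe sets moved the thymus difference to -0.00 and the spleen difference to -0.01.

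Bak1, which encodes the effector BAK, was at 7.20 and 7.33 in thymus HET, at 7.26 and 7.44 in thymus KO, at 7.27 and 7.21 in spleen HET, and at 7.15 and 7.42 in spleen KO. The arrays of all 4 groups overlapped. The genotype differences were 0.05 in spleen (CI -0.26 to 0.35) and 0.09 in thymus (CI -0.21 to 0.39).

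Bcl2l11 encodes BIM, a BH3-only protein with broad binding to prosurvival members. It was at 6.92 and 6.47 in thymus HET, at 7.24 and 6.81 in thymus KO, at 7.26 and 7.20 in spleen HET, and at 7.59 and 7.46 in spleen KO. Spleen KO arrays were the highest and thymus HET replicate 2 was the lowest. In spleen both KO arrays lay above both HET arrays, whereas in thymus the genotypes overlapped. Replicate arrays of the thymus were far apart for this gene, with replicate 1 above replicate 2 by 0.45 in HET and by 0.43 in KO, against 0.06 and 0.12 in spleen. Mki67, a marker of cycling cells, was also higher in replicate 1 in all 4 groups (by 0.40 to 0.55), as were 8.43% of all genes.

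Among the remaining BH3-only genes, Bid encodes the protein that caspase-8 cleaves to link death receptors to mitochondria. Bid was at 5.60 and 5.63 in thymus HET, at 5.63 and 5.79 in thymus KO, at 5.75 and 5.77 in spleen HET, and at 6.00 and 5.70 in spleen KO. The groups lay close together, and the highest value came from 1 of the 2 spleen KO arrays.

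Bbc3 encodes PUMA, which p53 induces after DNA damage, and came closest to background. It was at 5.57 and 5.34 in thymus HET, at 5.38 on both thymus KO arrays, at 5.30 and 5.20 in spleen HET, and at 5.12 and 5.37 in spleen KO. Pmaip1, which encodes the MCL1-binding NOXA, was at 6.23 and 5.97 in thymus HET, at 6.34 and 6.04 in thymus KO, at 6.05 and 5.73 in spleen HET, and at 6.04 and 6.11 in spleen KO. For both genes the arrays of each pair of groups overlapped between genotypes.

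The comparison of KO with HET cells asks whether loss of miR-181a/b-1 changes these transcripts. Of the 8 genes, 0 passed an adjusted p of 0.05 (limma) in spleen, where 0.00451% of all genes did, and 0 passed in thymus, where 0.00451% did. At an unadjusted p under 0.05 the counts were also 0 in each organ, beside 4.00% of all genes in spleen and 5.52% in thymus. These p-values measure only the spread between 2 pools of mice per group. The median difference of the 8 genes was 0.07 in spleen and 0.08 in thymus, beside 0.00 for all genes in each organ. Of the 8 values 7 were positive in spleen and 6 in thymus, beside 11321 and 11240 of all 22180 genes. On the probe sets used, the differences ranged from -0.01 to 0.29 in spleen and from -0.17 to 0.33 in thymus. Averaging both probe sets turned Bcl2 (-0.05) and Mcl1 (-0.01) negative in spleen.

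Arrays of the 2 genotypes did not overlap for Bcl2l1 and Bcl2l11 in spleen, both higher in KO, as were 18.6% of all genes by this measure. In thymus Bcl2 and Bid did not overlap on the probe sets used and were higher in KO, as were 15.0% of all genes. The second Bcl2 probe set overlapped there (5.02 and 5.24 in HET, 5.16 and 5.0 in KO). For Bid the nearest arrays of the genotypes were both at 5.63. Mcl1 did not overlap in thymus on the probe set used and was lower in KO, as were 14.4% of all genes, whereas its second probe set overlapped.

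Bcl2l11 differed between genotypes by 0.29 in spleen (CI -0.09 to 0.68; adjusted p = 1) and by 0.33 in thymus (CI -0.06 to 0.71; adjusted p = 0.948). With 1 array left out, the spleen value ranged from 0.23 to 0.36 and the thymus value from 0.10 to 0.55, the low values being those without thymus HET replicate 2 (0.10) or thymus KO replicate 1 (0.11) and the high ones those without thymus HET replicate 1 (0.55) or thymus KO replicate 2 (0.54). Averaged over both organs it was 1.24-fold higher in KO cells, a log2 difference of 0.31 (CI 0.04 to 0.58; unadjusted p = 0.0291), which did not pass over all genes (adjusted p = 0.833). Of the 8 genes it alone had an unadjusted p under 0.05 in the averaged comparison, beside 5.53% of all genes. None of the 8 passed after adjustment, where 0.0225% of all genes did.

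Of the other BH3-only genes, Bid differed by 0.09 in spleen (CI -0.21 to 0.39) and by 0.10 in thymus (CI -0.20 to 0.40). Bbc3 differed by -0.01 in spleen (CI -0.31 to 0.29) and by -0.07 in thymus (CI -0.37 to 0.23). Pmaip1 differed by 0.18 in spleen (CI -0.17 to 0.53) and by 0.09 in thymus (CI -0.25 to 0.44). The direction of several genotype differences rested on single arrays, and their ranges with 1 array left out are given in the closing section.

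Whether the genotype difference itself varied between organs was tested as an interaction. Of the 8 genes 0 passed, as did 0% of all genes, and the count at an unadjusted p under 0.05 was 0 of 8 beside 3.67% of all genes. The interaction, spleen minus thymus, ranged from -0.04 to 0.22, and their CIs lay between -0.58 and 0.59.

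Cell cycle genes had a positive KO difference in spleen in 13 of 13 measured members, with 0 called (Mki67 by 0.72, adjusted p = 1). Their summed level, on the log2 scale, was 10.39 to 10.73 in spleen HET and 10.80 to 10.93 in spleen KO. Their part in the higher Bcl2l11 values of spleen KO was not tested. Effector Treg genes, summed, were at 10.85 to 11.08 in thymus HET and 10.24 to 10.53 in thymus KO, and their part in the thymus values was not tested either. Markers of double-positive thymocytes, summed, were at 8.31 to 8.44 in thymus HET and 8.50 to 8.79 in thymus KO. Of these, 3 of 7 differences were positive (Cd8a by 1.27, adjusted p = 0.326). Immediate early and stress genes, summed, were at 10.95 to 11.06 in spleen HET and 10.71 to 10.75 in spleen KO. Of these, 10 of 12 differences were negative. In both lists 0 genes were called between genotypes, and their part was not tested.

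**Figure D2:**
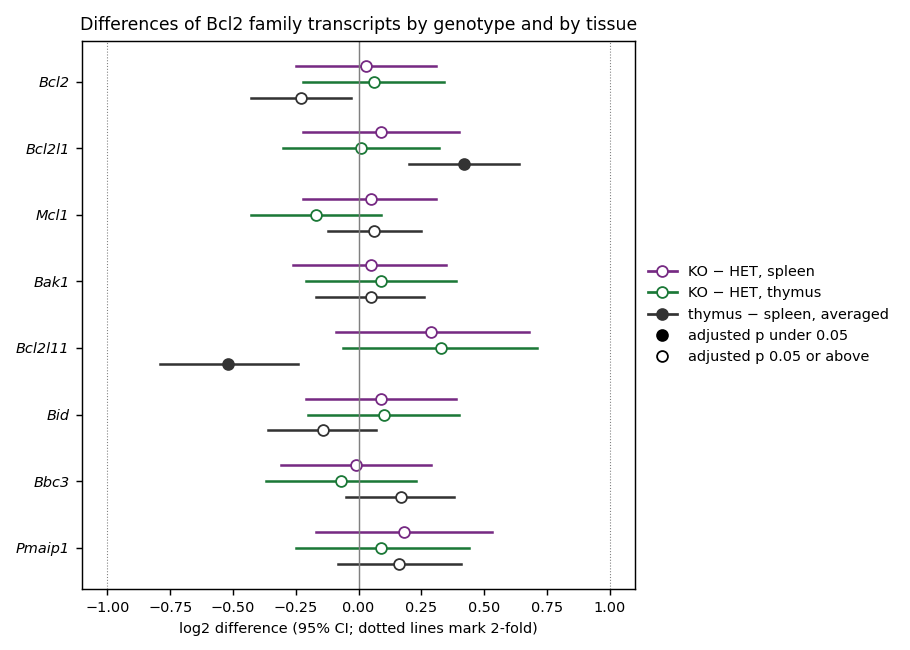
Log2 differences (horizontal axis) of the 8 genes with 95% CIs, for KO minus HET in spleen and in thymus and for thymus minus spleen averaged over genotypes. Filled points passed an adjusted p of 0.05; of the 24 differences the 2 that passed are Bcl2l1 (0.42) and Bcl2l11 (-0.52) between organs, and all CIs lie between the dotted lines at 2-fold.

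Thymic and splenic Treg cells were then compared. Averaged over genotypes, Bcl2l1 was higher in thymic cells by 0.42 (CI 0.20 to 0.64; adjusted p = 0.0319), and Bcl2l11 was lower by 0.52 (difference -0.52, CI -0.79 to -0.24; adjusted p = 0.0344). Thus 2 of the 8 genes passed (1 higher, 1 lower), beside 5.43% of all genes (2.26% higher and 3.17% lower). In bulk samples such as these, fewer cells that express a gene and less RNA per cell cannot be told apart.

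Bcl2 was 1.17-fold lower in thymic cells, a difference of -0.23 (CI -0.43 to -0.03; unadjusted p = 0.0279) that did not pass over all genes (adjusted p = 0.175). At an unadjusted p under 0.05 the count was thus 3 of 8, beside 21.1% of all genes. On the probe sets used, the 4 thymus arrays did not overlap the 4 spleen arrays for Bcl2l1 (higher in thymus, as were 6.19% of all genes) and for Bcl2 (lower in thymus, as were 8.29%). The second Bcl2 probe set did overlap, at 5.0 to 5.24 in thymus and 4.94 to 5.34 in spleen. Bcl2l11 did overlap, since thymus KO replicate 1 (7.24) lay above spleen HET replicate 2 (7.20).

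The other members moved less between organs. Bbc3 differed by 0.17 (CI -0.05 to 0.38; adjusted p = 0.36), Pmaip1 by 0.16 (CI -0.08 to 0.41; adjusted p = 0.443) and Bid by -0.14 (CI -0.36 to 0.07; adjusted p = 0.43). Mcl1 (0.06, CI -0.12 to 0.25) and Bak1 (0.05, CI -0.17 to 0.26) had the smallest differences. The median over the 8 genes was 0.05, beside 0.02 for all genes.

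Within a single genotype 0 of 8 genes passed, beside 1.20% of all genes in HET and 1.72% in KO, and at an unadjusted p under 0.05 the count was 2 of 8 in each, beside 11.7% and 15.7%. Bcl2l1 differed by 0.46 in HET (adjusted p = 0.19) and by 0.38 in KO (adjusted p = 0.219). Bcl2l11 differed by -0.53 in HET (adjusted p = 0.233) and by -0.50 in KO (adjusted p = 0.199), and Bcl2 by -0.25 and -0.21 (adjusted p = 0.492 and 0.469). With 1 array left out, Bcl2l11 ranged from -0.76 (without thymus HET replicate 1) to -0.31 (without thymus HET replicate 2) in HET, and from -0.72 (without thymus KO replicate 1) to -0.29 (without thymus KO replicate 2) in KO. Bcl2 in KO ranged from -0.34 (without spleen KO replicate 2) to -0.09 (without spleen KO replicate 1). These within-genotype values use the same arrays as the averaged comparison.

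Because both organs of a pool came from the same mice, each pool gives its own difference. For Bcl2l1, thymus minus spleen was 0.59 in HET1, 0.34 in HET2, 0.22 in KO1 and 0.54 in KO2. For Bcl2l11 it was -0.34, -0.73, -0.35 and -0.65, and for Bcl2 -0.27, -0.22, -0.31 and -0.11, in the same order. On the probe sets used, all 4 pools thus had the same sign for these 3 genes and also for Bbc3 (0.01 to 0.27), whereas the signs were mixed for Mcl1, Bak1, Bid and Pmaip1. On the second Bcl2 probe set, thymus lay above spleen in KO2 (5.0 and 4.94) and below it in HET1, HET2 and KO1. Over all genes, 14.8% were positive in all 4 pools and 15.6% were negative.

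**Figure D3:**
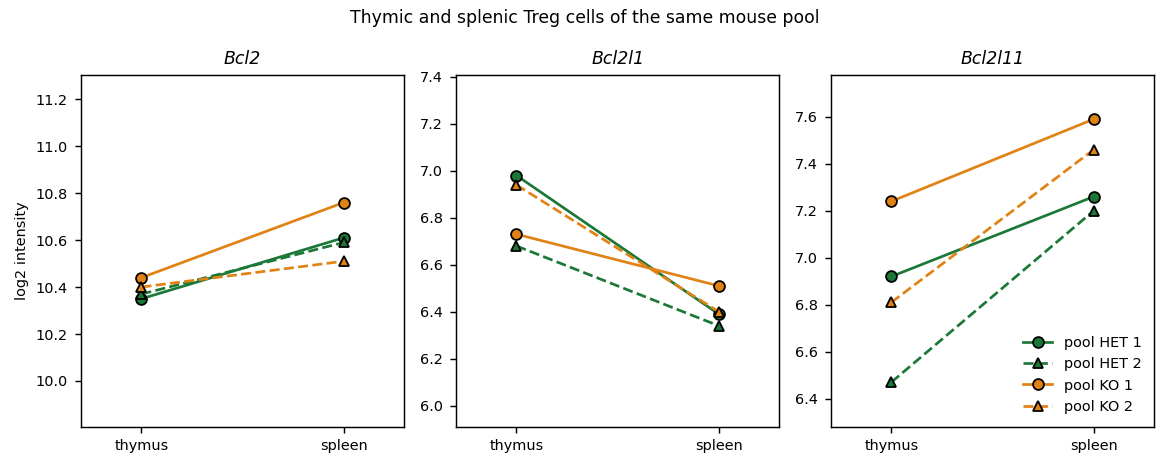
Log2 intensity (vertical axis) of Bcl2, Bcl2l1 and Bcl2l11 in thymic and splenic Treg cells, with a line for each of the 4 mouse pools (green HET, orange KO; circle and solid line pool 1, triangle and dashed line pool 2). Each line rises toward spleen for Bcl2 and Bcl2l11 and falls for Bcl2l1.

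Bcl2l1 minus Bcl2l11, taken within each array, was 0.05 and 0.21 in thymus HET, -0.51 and 0.13 in thymus KO, -0.87 and -0.86 in spleen HET, and -1.08 and -1.06 in spleen KO. Since the probe sets differ, only shifts of this log2 difference between arrays can be read, and all 4 spleen arrays lay below all 4 thymus arrays. The difference combines the 2 genes already called and is given as a description.

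Both calls were lost when most of the single arrays were left out. With 1 array left out, Bcl2l1 ranged from 0.35 to 0.50 (adjusted p 0.0261 to 0.118) and passed in 2 of 8 such fits, without thymus HET replicate 2 or thymus KO replicate 1. Bcl2l11 ranged from -0.63 to -0.40 (adjusted p 0.0148 to 0.123) and passed in 2 of 8, without thymus HET replicate 1 or thymus KO replicate 1. After quantile normalization Bcl2l11 differed by -0.41 and no longer passed (adjusted p = 0.0554).

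Marker lists in which genes passed between organs are given beside these values, to be read against 2.26% of all genes called higher and 3.17% called lower in thymus. Cell cycle genes were higher in thymic cells in 13 of 13 measured members, of which 10 passed, and their summed log2 level was 11.05 to 11.58 over the thymus arrays and 10.39 to 10.93 over the spleen arrays. Markers of double-positive thymocytes, summed, were at 8.31 to 8.79 in thymus and 8.09 to 8.26 in spleen, with 2 of 7 called higher in thymus and the defining Rag2 and Arpp21 under background on all arrays. B cell markers, summed, were at 10.03 to 10.51 in thymus and 10.81 to 11.13 in spleen, with 2 of 7 called lower in thymus, while Ms4a1, Pax5 and Blnk were under background on all arrays. This sum followed 1 gene, Ighm (9.83 to 10.34 in thymus and 10.65 to 11.02 in spleen). Cd22 was also called lower, at least 1.27-fold, and lay under background in thymus (adjusted p = 0.0206). Cd79b differed by -0.38 (adjusted p = 0.0823). Cd79a lay under background on average in both organs and differed by 0.09. Ms4a1, Pax5 and Blnk differed by 0.22, 0.01 and 0.01, and none of these or Cd79a was called. Of 12 effector Treg genes, 2 were called higher and 4 lower in thymus. Summed, they were at 10.85 to 11.08 in thymus HET and 10.24 to 10.53 in thymus KO. In spleen they were at 10.95 to 11.05 in HET and 10.96 to 11.00 in KO. Of the 2 called higher, Cxcr6 differed by 1.00 in HET and -0.01 in KO, and Itgae by 0.71 and 0.43. Of 6 naive T cell markers Satb1 was called higher (0.33, adjusted p = 0.0441) and Igfbp4 lower (-1.09, adjusted p = 7.93e-05), and of 7 Treg markers Tnfrsf18 was called higher (0.49, adjusted p = 0.0122). Of 6 plasma cell markers Jchain was at least 1.21-fold lower in thymus, where it lay under background, as it also did in spleen KO (adjusted p = 0.0115), and of 12 immediate early and stress genes Zfp36 was called lower (-0.53, adjusted p = 0.00765). The part of these genes in the Bcl2l1 and Bcl2l11 differences was not tested. Of 7 myeloid markers 0 were called, and Itgam, Cd14, Adgre1 and Itgax were under background on all arrays.

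For Bcl2l1 the 3 genes with the most similar pattern over the 8 arrays, among 11247 candidates, were Igsf3, Spdl1 and Olfr1333 (Pearson r of 0.980, 0.976 and 0.974). For Bcl2l11 they were Dkc1, Cdk5rap3 and Dbt (0.985, 0.982 and 0.979). These values describe 8 arrays that share the same organ split, and they are the highest of many. The 3 genes beside Bcl2l1 passed between organs (adjusted p 0.00219 to 0.00727), and those beside Bcl2l11 did not (0.102 to 0.307). Olfr1333 is also among the olfactory receptor genes that set the edge of background.

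Promoters of the 2 genes that passed are shown, since regulators that act on them were also measured. Windows ran from 250 bases before to 50 bases after the annotated start (RefSeq, GRCm38.p6), on the strand of the gene. For Bcl2l11 the window lay at chr2:128125788-128126087 on the plus strand and for Bcl2l1 at chr2:152830668-152830967 on the minus strand, and in each gene it is the window, among 2 and 3 annotated ones, that held a motif match. Capitals mark a FOXO match (GTAAACA) in Bcl2l11 and an NF-kappa-B match in Bcl2l1.
Bcl2l11 promoter: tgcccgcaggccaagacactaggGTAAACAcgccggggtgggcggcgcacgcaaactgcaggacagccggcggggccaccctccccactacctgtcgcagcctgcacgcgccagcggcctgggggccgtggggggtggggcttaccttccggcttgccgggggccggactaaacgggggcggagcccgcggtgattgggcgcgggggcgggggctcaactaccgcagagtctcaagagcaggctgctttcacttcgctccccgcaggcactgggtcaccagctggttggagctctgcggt
Bcl2l1 promoter: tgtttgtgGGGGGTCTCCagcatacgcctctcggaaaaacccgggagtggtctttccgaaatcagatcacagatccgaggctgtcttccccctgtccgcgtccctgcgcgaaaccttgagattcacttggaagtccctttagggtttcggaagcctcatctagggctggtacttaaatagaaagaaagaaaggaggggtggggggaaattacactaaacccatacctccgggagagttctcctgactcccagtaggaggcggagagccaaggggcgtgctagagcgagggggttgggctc
Motifs were searched on both strands and did not overlap each other in these windows. Over 13 windows of 8 of the 9 genes (all but Pmaip1), FOXO matched in 2 windows (Bcl2l11 and Bbc3) and NF-kappa-B in 2 (Bcl2l1 and Bbc3), beside 3.65% and 8.46% of 32851 promoters. The STAT motif TTCNNNGAA matched in 0 of 13, beside 8.3% of promoters, and the NR4A motif AAAGGTCA in 0 of 13, beside 1.51%. A match describes letters in the window and shows no binding.

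Genes that act around the family were counted next, all in the comparison of organs averaged over genotypes. In the lists that follow, 0 genes passed in any comparison of KO with HET. Counts between organs stand beside 2.26% of all genes called higher and 3.17% called lower in thymus, and medians beside 0.02 for all genes. Of the other Bcl2 family genes, 13 of 17 were measured and 0 passed, with a median of 0.02. Bcl2a1a, a prosurvival gene with near-identical copies whose signals the probe set may share, was at 5.95 to 6.53 in thymus and 5.62 to 6.10 in spleen (0.36, adjusted p = 0.103). Bcl2l10, Bmf, Hrk, Bcl2l14 and Bcl2l15 were under background on all arrays.

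Of the genes of the apoptosome, the caspases and their inhibitors, 20 of 22 were measured, 0 passed as higher in thymus and 2 as lower, with a median of -0.02. Naip2, known as a sensor of bacterial proteins in the NLR family and listed here for its inhibitor-of-apoptosis repeats, was at 3.66 to 4.68 in thymus, under background on average, and at 5.33 to 5.92 in spleen, at least 2.12-fold lower in thymus (adjusted p = 1.12e-04). Vdac2, an outer mitochondrial membrane channel that binds BAK, was at 7.33 to 7.62 in thymus and 7.78 to 7.97 in spleen (-0.40, adjusted p = 0.0386).

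Of the death receptor genes, 12 of 13 were measured, 1 passed as higher in thymus and 3 as lower, with a median of -0.27. Fas, the receptor of Fas ligand, was higher in thymus, at 8.71 to 8.95 against 8.18 to 8.39 in spleen (0.55, adjusted p = 0.00493). Its ligand Fasl was at 4.28 to 4.66 in thymus, under background on average, and at 5.26 to 5.48 in spleen, at least 1.61-fold lower in thymus (adjusted p = 8.95e-04). Casp8, the initiator caspase upstream of Bid, was lower in thymus (-0.44, adjusted p = 0.0192), as was Cyld, a deubiquitinase of the receptor complexes (-0.34, adjusted p = 0.0456).

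Of the survival cytokine receptors and STAT5 genes, 12 of 14 were measured, 1 passed as higher in thymus and 3 as lower, with a median of -0.20. Stat5a, a transcription factor downstream of the IL-2 receptor, was at 8.11 to 8.39 in thymus and 7.44 to 7.57 in spleen (0.77, adjusted p = 8.03e-04). Socs2, a feedback inhibitor and a STAT5 target, was lower in thymus (-0.98, adjusted p = 0.0011), as were Il4ra (-0.66, adjusted p = 0.00533) and Pim1, a survival kinase (-0.40, adjusted p = 0.0451). The Socs2 average joined unlike values, -0.38 in HET (adjusted p = 0.45) and -1.57 in KO (adjusted p = 0.00169). Its interaction of 1.19 did not pass over all genes. The genes lower in thymus thus encode a feedback inhibitor, a receptor and a kinase, and the gene that was higher encodes a transcription factor.

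Of the upstream regulators, 17 of 19 were measured, 3 passed as higher in thymus and 1 as lower, with a median of -0.02. Nr4a3 and Nr4a1, nuclear receptors induced by T-cell receptor (TCR) signals, were higher in thymus by 1.65 (adjusted p = 2.13e-06) and 1.21 (adjusted p = 5.75e-05), and their thymus and spleen arrays were at 9.17 to 9.34 against 7.50 to 7.62 and at 9.63 to 9.96 against 8.54 to 8.64. Rel, an NF-kappa-B subunit known to induce Bcl2l1, was higher by 0.77 (adjusted p = 4.03e-04), and Ccng1, a p53 target, was lower (-0.55, adjusted p = 0.0136). Foxo1 and Foxo3, which are known to induce Bcl2l11, differed by -0.19 (adjusted p = 0.253) and -0.11 (adjusted p = 0.523). Nr4a1, Nr4a3 and Rel thus had larger differences between organs than any of the 8 family genes, on probe sets of their own. Whether any of these regulators had a part in the Bcl2l1 and Bcl2l11 differences was not tested.

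**Figure D4:**
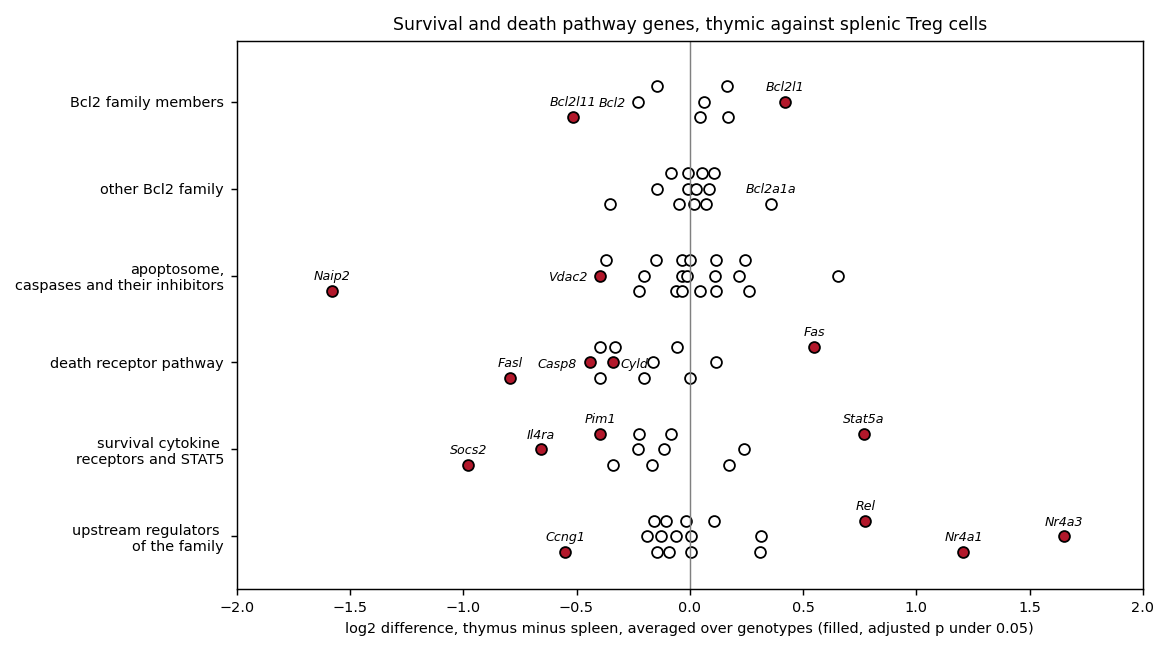
Log2 difference between thymic and splenic Treg cells, averaged over genotypes (horizontal axis), for each measured gene of 6 lists (rows; vertical offsets only separate points). Filled points passed an adjusted p of 0.05; Naip2 and Fasl are drawn at measured differences of -1.58 and -0.79 although their thymus levels lay under background, and Nr4a3 (1.65) lies farthest to the right.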

How the data were processed

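RNA of sorted Treg cells was hybridized to 8 Affymetrix arrays. The deposited values are log2 intensities made by the authors with the oligo package (version and summarization not given in the sources used here). Array medians were 4.58 to 4.70, and no further normalization was applied. The number of arrays limits precision. The study's methods name another array design than the deposited identifiers, which were followed. Of 41345 probe sets, 23521 carried 1 gene symbol, 1820 several and 16004 were not listed. For each gene the probe set with the highest mean was kept.

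With limma 3.58.1 in R 4.3.3, 1 model with 4 group means (4 residual degrees of freedom, eBayes) gave each contrast, with two-sided p-values adjusted by Benjamini-Hochberg over all genes at a threshold of 0.05. The script was tested on simulated data. "At least" folds set the higher mean against the lower group with its arrays raised to 4.63 where below it. Summed levels are log2 of a list's summed linear intensities. Members, lists and rules were chosen with earlier results of these data known. All members were named. Of each list of genes that act around the family, up to 5 genes with the smallest p among those past the threshold were named. Genes of the marker lists and the other genes were named after their values were seen. Alternatives were a filter at the median level, quantile normalization, a trended robust prior, the mean of probe sets, only the compared arrays, blocks for replicate number or mouse pool, and leaving out each array. Pools shared by thymus and spleen are known from the labels. Across genes, deviations of a pool's 2 arrays from their group means correlated by 0.12 (HET) and 0.02 (KO). For arrays of the 2 genotypes with the same number, which share no mice, the correlation was 0.21 in thymus and -0.05 in spleen.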

Additional observations from a re-analysis of the deposited data

How the results depend on the processing

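With 2 arrays per group, limits follow from single arrays. Averaged over genotypes, 2 family genes passed between organs, and after quantile normalization only Bcl2l1 did. With 1 array left out both calls were mostly lost, as given above. Bcl2l1 was then lowest without thymus HET replicate 1 (0.35), and Bcl2l11 differed least without thymus HET replicate 2 (-0.40). The cause was not tested. With the replicate block for number, for mouse pool and for pool as a random term, Bcl2l1 (adjusted p = 0.0307, 0.0328 and 0.0248) and Bcl2l11 (0.0113, 0.0163 and 0.0255) passed, and the blocks changed no other call of the 8 genes. Of all genes past the threshold between organs, 41.6% were higher in thymus, and 53.0% after quantile normalization. Counts between genotypes were 0 under all alternatives run.

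The mean of all probe sets turned the KO difference in spleen to -0.05 for Bcl2 and -0.01 for Mcl1, and moved that of Mcl1 in thymus from -0.17 to -0.00. With 1 array left out, the KO difference in spleen ranged from -0.10 to 0.15 for Bcl2, -0.01 to 0.11 for Mcl1, -0.09 to 0.18 for Bak1, -0.06 to 0.24 for Bid and -0.14 to 0.12 for Bbc3. In thymus it ranged from -0.14 to 0.16 for Bcl2l1, -0.19 to 0.05 for Bbc3 and -0.06 to 0.24 for Pmaip1. Between organs Bak1 ranged from -0.02 to 0.11. The cause was not tested. Bcl2l11 averaged over organs stayed between 0.20 and 0.42 (adjusted p 0.482 to 1). Bbc3 and Bid had the lowest signal over background of the 8 genes.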
